A study of Homo sapiens with 6 samples.

Results

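The retinoid synthesis, binding and degradation genes described here are 9 genes matched by symbol among the 60675 genes of the count table. They are CRABP2, RDH10, DHRS9, DHRS3, RDH11, ALDH1A1, ALDH1A3, CYP26A1 and CYP26B1. They were read in 3 RARG-KO and 3 wild-type (WT) RNA-seq libraries of PANC1, an established line from a human pancreatic carcinoma. RARG-KO cells carried a RARG gene targeted by CRISPR/Cas9 with a pair of guide RNAs from a transfected plasmid. They were selected with puromycin and expanded as single clones, per the labels, which do not give the number of clones behind the libraries. WT cells were untreated, and the labels do not say whether they went through transfection or selection. Both groups grew in serum-containing medium, and the labels name no added retinoid.

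Cells make retinoic acid from retinol, and the steps are reversible only in part. Retinol dehydrogenases oxidise retinol to retinaldehyde and retinaldehyde reductases turn it back, while retinaldehyde dehydrogenases of the ALDH1A family make retinoic acid irreversibly. CYP26 enzymes hydroxylate and so clear retinoic acid, and CRABP2 carries it to its nuclear receptors, of which RARG is one. CYP26A1, CYP26B1, DHRS3 and CRABP2 are known as genes that retinoic acid itself induces in many cells.

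Retinoid receptors bind DNA at direct repeats of a short element, and such a repeat was searched for in RefSeq promoter windows (GRCh38.p14, 250 bases before to 50 after a start). The element AGGTCA was searched, and so was the variant AGTTCA with a thymine inside. The form GGTTCA, which starts with a guanine, and the form GGGTCA were searched as well. Direct repeats of any pair of these 4, on either strand, were counted where the gap was 1, 2 or 5 bases. For the set, 14 windows of 8 of the 9 genes were counted, and RDH10 was left out of this count. Of these 14 windows, 1 window, of CYP26A1, held a direct repeat. Among all 35116 windows, 0.259% held one, and 0.0883% held one with a gap of 5 bases. Of 52 genes of the set and of the wider retinoid lists with a window, CYP26A1 and RARB, the gene of the beta receptor, were the 2 that held a repeat. Their repeats are shown because CYP26A1 and RARB were also near the limit of detection in all libraries. They are written in the direction of the elements, with the elements in capitals:
CYP26A1 repeat, chr10:93073803-93073819, minus strand: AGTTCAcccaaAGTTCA
RARB repeat, chr3:25428210-25428226, plus strand: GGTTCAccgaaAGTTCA
The CYP26A1 repeat lay 74 to 90 bases before the start that its window was set on. For RARB this was 37 to 53 bases. Another window of CYP26A1, chr10:93073225-93073524, held none of the 4 elements. The annotated start of the CYP26A1 gene, 93073475, lies ahead of the repeat, so by that start the repeat is inside the gene. A window of each CYP26 gene, for CYP26A1 the one with the repeat, is shown whole because these related genes differed widely in level. Capitals again mark the elements, here on the strand of the gene:
CYP26A1 promoter, chr10:93073643-93073942, plus strand: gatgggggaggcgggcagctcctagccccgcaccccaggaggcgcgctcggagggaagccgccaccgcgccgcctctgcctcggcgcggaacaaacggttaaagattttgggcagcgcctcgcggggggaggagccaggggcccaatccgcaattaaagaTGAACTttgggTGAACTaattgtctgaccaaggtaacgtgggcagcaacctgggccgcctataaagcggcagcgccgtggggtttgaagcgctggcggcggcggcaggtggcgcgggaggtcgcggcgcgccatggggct
CYP26B1 promoter, chr2:72147813-72148112, minus strand: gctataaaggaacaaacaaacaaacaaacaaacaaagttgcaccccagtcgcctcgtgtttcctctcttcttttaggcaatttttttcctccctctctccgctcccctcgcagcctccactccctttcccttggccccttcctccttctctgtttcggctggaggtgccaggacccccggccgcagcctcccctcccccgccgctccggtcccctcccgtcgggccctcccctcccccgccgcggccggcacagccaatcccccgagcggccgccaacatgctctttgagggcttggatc
The CYP26B1 window held none of the 4 elements, which says only that these letters are not in it. Single elements were found in 5 of the 14 windows, and 38.6% of all windows had at least 1. A match is a description of the sequence, and binding was not measured.

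Libraries held 30115051 to 31608089 counts in RARG-KO and 29386408 to 30605114 in WT. RARG itself had 28.4, 24.1 and 28.5 CPM (counts scaled to the library size) in RARG-KO, against 39.1, 40.6 and 41.6 CPM in WT, so it was lower in every RARG-KO library but still present. A count over the whole gene does not show whether or where the gene was altered, so this checks the labels only in part. Of 8 ductal epithelial markers, 6 were tested and all 6 were lower in RARG-KO, with summed levels of 1368 to 1447 CPM against 3018 to 3086 CPM in WT, and CFTR had 0 or 1 reads in any library. Acinar (5 of 5), endocrine (4 of 4) and leukocyte (4 of 4) markers stayed at 5 reads or fewer in every library. The fibroblast and stellate list summed to 208 to 221 CPM in RARG-KO and 104 to 109 CPM in WT, nearly all from COL1A1. Its other 2 tested genes were lower, COL3A1 with 1.92 to 2.35 CPM in RARG-KO and 3.34 to 3.93 CPM in WT, and ACTA2 with 0.223 to 0.358 CPM in RARG-KO and 0.801 to 0.969 CPM in WT, while DCN was at 0 reads in every library. The endothelial list summed to 5.24 to 5.87 CPM in RARG-KO and 1.45 to 2.07 CPM in WT, mostly from KDR. Mitochondrial transcripts took 5.19% to 5.37% of the counts in RARG-KO and 3.87% to 4.0% in WT. The part of these shifts in the results below was not tested.

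Across all genes, 9854 of 16996 tested (58.0%) passed the quasi-likelihood test of edgeR at an adjusted p under 0.05, 28.7% as higher and 29.3% as lower in RARG-KO. Of the 9 genes, 7 passed the filter on low counts and 2, ALDH1A1 and CYP26A1, did not. DHRS9, DHRS3 and CRABP2 were higher in RARG-KO, ALDH1A3, RDH10 and CYP26B1 were lower, and RDH11 did not pass the test. The fall of RDH10 was no larger than that of the genes around it. With a background of 58.0%, 6 of 7 called genes is no result about the set. Its median log2 fold change was 0.04, beside 0.01 over all genes tested. Against all tested genes, the log2 change of DHRS9 was larger in size than 97.0%, that of RDH11 larger than 7.54%, and the others lay between 45.9% and 80.5%. In these 6 genes every RARG-KO library lay on one side of every WT library, as in 62.6% of all tested genes. In bulk RNA, fewer cells with a transcript and less transcript per cell cannot be told apart.

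**Figure D1:**
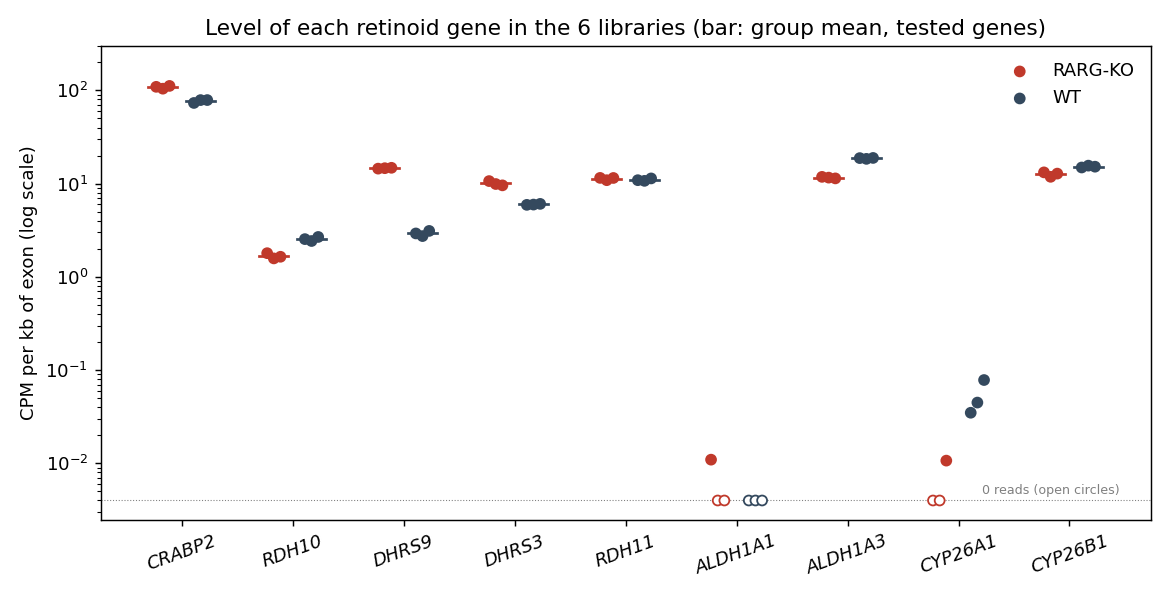
Level of each of the 9 genes in CPM per kilobase of exon (log axis), RARG-KO libraries in red on the left and WT libraries in dark blue on the right of each gene; short bars are group means of the tested genes, and open circles on the dotted line are libraries with 0 reads. DHRS9 lies near ALDH1A3 and CYP26B1 in RARG-KO and near RDH10 in WT, and ALDH1A1 and CYP26A1 lie far below the others in both groups.

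CRABP2 (ENSG00000143320, chromosome 1, 156699606 to 156705816, minus strand, GRCh38), the binding protein that hands retinoic acid to its receptors, was the most abundant of the 9 genes. It had 120, 115 and 123 CPM in RARG-KO replicates 1, 2 and 3, against 80.7, 86.6 and 86.7 CPM in WT. Every RARG-KO library lay above every WT library. The log2 fold change was 0.49 ± 0.04 (SE; edgeR adjusted p = 1.40e-09), with group means of 119 ± 4.14 CPM in RARG-KO and 84.7 ± 3.43 CPM in WT (SD, n = 3 each). Per kilobase of exon, its level was 108 in RARG-KO and 77.0 in WT, above every other gene of the set. FABP5, which can carry retinoic acid to another nuclear receptor, was at 36.7 ± 1.58 CPM in RARG-KO and 35.5 ± 1.89 CPM in WT (SD, n = 3 each) and did not pass (log2 0.05, 95% interval -0.08 to 0.17). Of the 40 nearest tested protein-coding genes of FABP5, on chromosome 8, 31 were lower and 3 higher in RARG-KO (median log2 -0.56).

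DHRS9 (ENSG00000073737, chromosome 2, 169064789 to 169096167, plus strand), which encodes a short-chain dehydrogenase that oxidises retinol and other substrates such as steroids, had the highest log2 fold change among the tested genes of retinoid conversion. It had 54.3, 54.9 and 55.5 CPM in RARG-KO and 11.0, 10.3 and 11.7 CPM in WT. The RARG-KO libraries had a coefficient of variation of 1.05% and lay far above all WT libraries. The change was 5.00-fold, a log2 of 2.32 ± 0.06 (SE; edgeR adjusted p = 2.26e-17). Means were 54.9 ± 0.57 CPM in RARG-KO and 11.0 ± 0.70 CPM in WT (SD, n = 3 each).

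RDH10 (ENSG00000121039, chromosome 8, 73294612 to 73325281, plus strand), the retinol dehydrogenase needed for embryonic retinoic acid synthesis in the mouse, went the other way. Its values were 9.56, 8.40 and 8.75 CPM in RARG-KO, against 13.5, 12.9 and 14.3 CPM in WT. The groups did not overlap, and the log2 fold change was -0.61 ± 0.08 (SE; edgeR adjusted p = 3.02e-06). Of its 40 nearest tested protein-coding genes, 29 were lower and 2 higher in RARG-KO, with a median log2 of -0.63. With the median of the neighbours removed, RDH10 was at 0.02 (edgeR adjusted p = 0.863), so its fall was of the size seen around it and the call was lost. An antisense gene, RDH10-AS1, overlaps 278 of its exonic bases, but had 13 reads in RARG-KO.

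The proportions of both dehydrogenases differed between groups. DHRS9 had the larger change (log2 2.32), and the fall of RDH10 (-0.61) was of the size seen around it. Per kilobase, DHRS9 made up 89.0%, 90.3% and 90.0% of the sum of DHRS9 and RDH10 in RARG-KO replicates 1, 2 and 3, against 53.5%, 53.0% and 53.7% in WT. The sum itself was 16.2 to 16.4 CPM per kilobase in RARG-KO and 5.17 to 5.80 in WT. In WT cells both genes had about the same level per kilobase, 2.93 ± 0.19 for DHRS9 and 2.55 ± 0.13 for RDH10 (SD, n = 3), whereas in RARG-KO cells these were 14.6 ± 0.15 and 1.67 ± 0.11.

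DHRS3 (ENSG00000162496, chromosome 1, 12567910 to 12617731, minus strand), a reductase that turns retinaldehyde back to retinol and is known to work in a complex with RDH10, rose. It had 32.4, 30.1 and 29.1 CPM in RARG-KO, against 18.0, 18.1 and 18.4 CPM in WT. No RARG-KO library came near the WT range, and the spread in RARG-KO was the wider one, with a coefficient of variation of 5.45% against 1.24% in WT. The log2 fold change was 0.75 ± 0.06 (SE; edgeR adjusted p = 2.53e-09). The ratio of DHRS3 to RDH10, per kilobase, was 5.93, 6.28 and 5.83 in RARG-KO and 2.33, 2.46 and 2.26 in WT. This ratio includes the fall of RDH10, which was of the size seen among its neighbours.

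RDH11 (ENSG00000072042, chromosome 14, 67676801 to 67695814, minus strand), another retinaldehyde reductase, also known to act on short-chain aldehydes, overlapped between groups. It had 63.6, 60.1 and 63.5 CPM in RARG-KO and 60.1, 59.1 and 62.8 CPM in WT. The log2 fold change of 0.04 had a 95% interval of -0.06 to 0.14 (edgeR adjusted p = 0.471). Its neighbours were shifted up by a median of 0.17, with 19 of 40 higher, and with that removed RDH11 was at -0.13 and passed as lower (edgeR adjusted p = 0.0256). DHRS3 accounted for 48.0%, 47.6% and 45.5% of the sum of DHRS3 and RDH11 per kilobase in RARG-KO, against 35.2%, 35.8% and 34.8% in WT.

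ALDH1A3 (ENSG00000184254, chromosome 15, 100877714 to 100916626, plus strand) was nearly the only source of ALDH1A transcripts. Its product makes retinoic acid from retinaldehyde, and it is also known as the main aldehyde dehydrogenase of many tumour cells. It fell to 68.3, 67.0 and 65.7 CPM in RARG-KO, against 109, 106 and 109 CPM in WT. RARG-KO cells held 62.1% of the WT level, with a coefficient of variation of 1.89% in RARG-KO and 1.21% in WT. The log2 fold change was -0.69 ± 0.04 (SE; edgeR adjusted p = 2.52e-12). Neighbouring genes went both ways: 13 of 27 were higher and 10 lower in RARG-KO, with a median log2 of 0.13. The closest tested protein-coding gene on each side lay below 0, ASB7 at -0.38 and LRRK1 at -0.87. With the median removed, the change of ALDH1A3 was -0.82. ALDH1A3-AS1, on the other strand, overlaps 1585 of the 5772 exonic bases of ALDH1A3 and had 161, 132 and 150 reads in RARG-KO, against 223, 228 and 308 in WT. Without knowing whether strand was used, these reads cannot be told apart from those of ALDH1A3, which had 6309 reads in RARG-KO and 9603 in WT.

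ALDH1A1 (ENSG00000165092, chromosome 9, 72900662 to 73080442), the retinaldehyde dehydrogenase of many stem-like cells, was not detected above the floor of 3 reads a library. RARG-KO libraries had 1, 0 and 0 reads and WT libraries had 0 in all 3. A count of 3 reads corresponded to 0.0937 to 0.104 CPM, a limit that covers counting error only. ALDH1A2, of the same family, had 6 reads in RARG-KO and 27 in WT over all libraries of a group, a ratio of 0.210 with an exact Poisson 95% interval of 0.0709 to 0.519. So in both groups the ALDH1A signal was that of ALDH1A3.

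CYP26B1 (ENSG00000003137, chromosome 2, 72129238 to 72148038, minus strand) held nearly all CYP26 reads of these cells. It had 66.3, 59.4 and 64.3 CPM in RARG-KO, against 74.8, 78.3 and 76.2 CPM in WT. The groups did not overlap, although they lay closer together than those of the other called genes. The log2 fold change was -0.27 ± 0.05 (SE; edgeR adjusted p = 3.75e-05), the smallest change among the 6 called genes, while the median of its neighbours was 0.02.

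CYP26A1 (ENSG00000095596, chromosome 10, 93073475 to 93077890, plus strand), whose promoter repeat is printed above, was close to silent. It had 0, 0 and 1 reads in RARG-KO and 3, 4 and 7 reads in WT. All WT libraries thus lay at or just above the floor, and all RARG-KO libraries below it. The summed reads, 1 and 14, gave a ratio of 0.0675 of RARG-KO over WT, with an exact Poisson 95% interval of 0.0016 to 0.444 that covers counting error only. Without a filter on low counts its log2 fold change was -3.45 (edgeR adjusted p = 0.0349). CYP26C1, of the same family, adjoins it on the chromosome and had 1 read in RARG-KO and 33 in WT, a ratio of 0.0286 (0.000704 to 0.171). Of the 40 nearest tested genes of CYP26A1, 35 were lower in RARG-KO, with a median log2 of -0.65. The interval of CYP26A1 on the log2 scale, -9.29 to -1.17, lay below that median. It holds no spread among replicates, so whether CYP26A1 fell beyond its region was not tested. A processed transcript on the same strand overlaps 750 of the 2972 exonic bases of CYP26A1 and 826 bases of CYP26C1. How reads in these shared bases were assigned is not known. CYP26B1 made up 99.9% to 100% of the sum of CYP26A1 and CYP26B1 per kilobase in RARG-KO and 99.5% to 99.8% in WT.

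**Figure D2:**
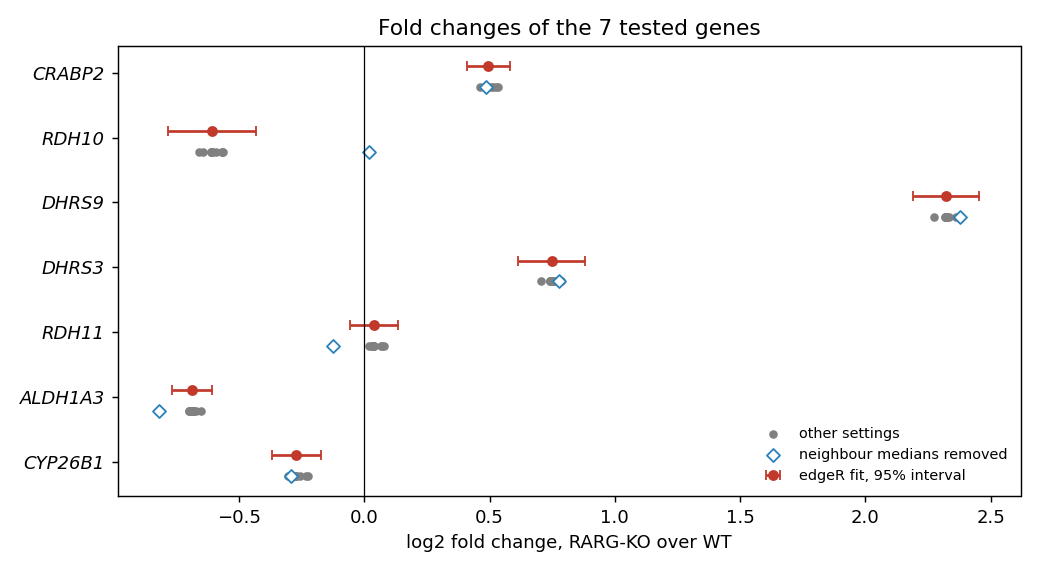
Log2 fold change, RARG-KO over WT, of the 7 tested genes: red points with 95% intervals are the edgeR values over all 6 libraries, grey points the values in 11 other settings, and open blue diamonds those with the median of neighbouring genes removed. All settings keep the direction of 5 genes, while the diamonds of RDH10 and RDH11 stand on the other side of 0.

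The order of levels, per kilobase, was compared within each group. In RARG-KO it ran CRABP2, DHRS9 (14.6), CYP26B1 (12.6), ALDH1A3 (11.6), RDH11 (11.3), DHRS3 (10.1) and RDH10 (1.67), in CPM per kilobase of all annotated exons. In WT it ran CRABP2, ALDH1A3 (18.7), CYP26B1 (15.2), RDH11 (11.0), DHRS3 (5.99), DHRS9 (2.93) and RDH10 (2.55). In RARG-KO the libraries of ALDH1A3 (11.4 to 11.8) and RDH11 (10.9 to 11.5) overlapped in level. The lowest CYP26B1 library (11.84) lay just above the highest ALDH1A3 library (11.83). In WT no gene overlapped the next, and DHRS9 (2.74 to 3.11) and RDH10 (2.43 to 2.68) were the closest pair at the low end. The middle of the order depended on the length used. With the longest coding transcript, RDH11 was next after CRABP2 in RARG-KO (24.1) and next after ALDH1A3 in WT (23.5), its annotated exons being 5518 bases in sum and its longest coding transcript 2588. CRABP2 stayed first and RDH10 last with both lengths.

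Summed by role, per kilobase, the reductases DHRS3 and RDH11 had 20.8 to 22.2 CPM in RARG-KO and 16.7 to 17.5 in WT. Retinaldehyde oxidation, ALDH1A3 and ALDH1A1 together, had 11.4 to 11.8 CPM per kilobase in RARG-KO and 18.4 to 18.9 in WT. Hydroxylation, CYP26B1 and CYP26A1 together, had 11.8 to 13.2 in RARG-KO and 14.9 to 15.7 in WT. Each sum covers 2 genes of the set, and single genes went against it or did not pass: RDH10 fell while its sum with DHRS9 was higher, and RDH11 was not called. These are sums of transcript levels, and neither enzyme activity nor retinoids were measured.

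**Figure D3:**
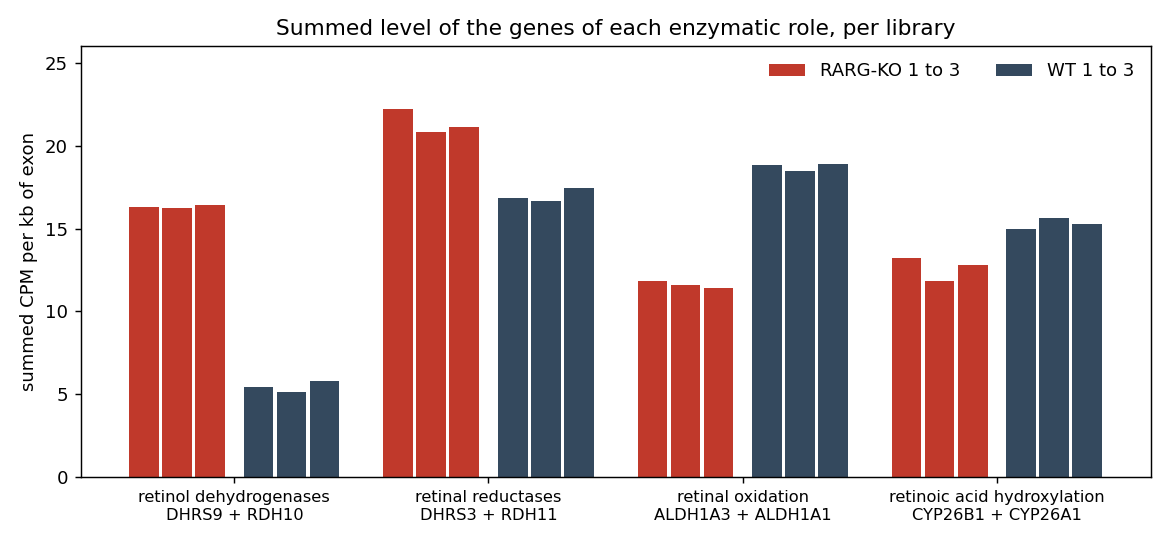
Summed level of the genes of each enzymatic role in CPM per kilobase of exon, 1 bar per library, RARG-KO (red) left of WT (dark blue), axis from 0. The retinol dehydrogenases reach 16.2 to 16.4 in RARG-KO against 5.17 to 5.80 in WT, while retinaldehyde oxidation is lower in every RARG-KO library.

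The wider pathway was described with lists of genes of uptake, binding, conversion, storage and degradation. Leaving out the 9 genes, 43 genes were listed, 21 passed the filter, 4 were higher, 11 were lower and 6 did not pass the edgeR test. That was 71.4% called, beside 58.0% of all tested genes, and a median log2 of -0.19 beside 0.01. Of the 22 genes below the filter, 7 had 0 reads in every library.

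Of 7 tested binding and transport genes, 5 were lower, CRABP2 was higher and FABP5 did not pass, beside 29.3% lower and 28.7% higher among all tested genes. Their median log2 was -0.71, beside 0.01 over all genes. RBP7, a cellular retinol-binding protein gene, had 2.09 ± 0.39 CPM in RARG-KO and 7.30 ± 0.69 CPM in WT (SD, n = 3 each; log2 -1.81 ± 0.15, SE; edgeR adjusted p = 1.00e-09). SCARB1, the gene of a scavenger receptor that takes up carotenoids and lipids, fell by a log2 of -0.45 ± 0.05. RBP4, the gene of the retinol carrier of blood, and STRA6, that of its receptor, were named after their values were seen. RBP4 fell by -2.70 ± 0.33 and STRA6 by -1.63 ± 0.21 on the log2 scale (SE). RBP4 lies on chromosome 10 as CYP26A1 does, and 34 of its 40 neighbours were lower too (median -0.61).

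Among other retinol dehydrogenases, ADH5, mainly a formaldehyde-detoxifying enzyme gene, rose by a log2 of 0.19 ± 0.04 (SE; edgeR adjusted p = 6.36e-05), and SDR16C5 fell by -2.17 ± 0.55 at 0.326 CPM or less in RARG-KO and 0.554 to 0.832 CPM in WT. SDR16C5 rested on 4, 10 and 0 reads in RARG-KO, and its log2 was -3.36 without RARG-KO replicate 2 and -1.59 without RARG-KO replicate 3. Of its 40 neighbours on chromosome 8, 31 were lower (median -0.54), and with that median removed it was at -1.64 and still called (edgeR adjusted p = 0.0175). Of the 6 tested retinol dehydrogenases in all, DHRS9 included, 2 were higher, 2 lower and 2 did not pass. Of the 6 tested reductases, DHRS4 (0.81 ± 0.13) and RDH14 (0.30 ± 0.08) rose with DHRS3, and RDH13 fell (-0.29 ± 0.05). Both lists were 66.7% called, beside 58.0% of all tested genes (28.7% higher, 29.3% lower), so neither count is a result about its list. RDH14 shares 264 exonic bases with NT5C1B-RDH14 on the same strand. RDH13 shares 825 with a processed transcript on the same strand and 349 with GP6-AS1 on the other strand. The small changes of RDH14 and RDH13 are therefore uncertain. DHRS4 has near-identical copies beside it, so its split of reads is uncertain. DHRS4-AS1 also overlaps 331 of its bases on the other strand, with 709 reads in RARG-KO, more than the 586 of DHRS4 itself.

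Retinaldehyde oxidation outside the ALDH1A family rested on genes of low level. AOX1, an aldehyde oxidase gene, fell to 0.281, 0.716 and 0.573 CPM in RARG-KO, against 5.05, 6.47 and 5.32 CPM in WT (log2 -3.42 ± 0.23, SE; edgeR adjusted p = 4.41e-11). ALDH8A1 rose (log2 1.44 ± 0.43), with 14 to 29 reads in RARG-KO and 6 to 9 in WT. Leaving out RARG-KO replicate 2 ended this call, at a log2 of 1.08 (edgeR adjusted p = 0.0651). Of the 40 neighbours of ALDH8A1, 30 were higher (median 0.49), and with that median removed ALDH8A1 was at 0.95 and its call was lost too (edgeR adjusted p = 0.0688). Of 5 tested storage and saturation genes, 3 were lower and 2 did not pass, beside 29.3% lower and 28.7% higher among all tested genes, so a count of 0 higher is no result about this list. DGAT1, an acyltransferase that can esterify retinol, fell by -0.61 ± 0.08 and RETSAT, the retinol saturase gene, by -0.19 ± 0.04. DGAT1 was at -0.08 with the median of its neighbours removed, and its call was lost (edgeR adjusted p = 0.424). DGAT1 overlaps HSF1 over 139 bases and RETSAT overlaps ELMOD3 over 227 bases on the other strand, so the small fall of RETSAT is uncertain. LRAT, the main retinol-esterifying gene of liver, had 9 reads in RARG-KO and 6 in WT.

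Receptors and genes that retinoic acid induces were read beside the enzymes. RARA rose by a log2 of 0.73 ± 0.06 and RXRA by 0.59 ± 0.04 (SE). RARB had 0, 8 and 0 reads in RARG-KO replicates 1, 2 and 3, and 5, 0 and 3 reads in WT. Its RARG-KO reads thus came from replicate 2 only. Of 20 genes listed as induced by retinoic acid, CYP26A1, CYP26B1, DHRS3 and CRABP2 among them, 13 were tested, 4 were higher, 8 lower and 1 was not called. That was 92.3% called, beside 58.0% of all tested genes, of which 28.7% were higher and 29.3% lower. Their median log2 was -0.94, beside 0.01 over all genes. The higher ones were DHRS3, CRABP2, MEIS1 (1.00 ± 0.15) and HOXB4 (0.16 ± 0.06), and TGM2 (-5.21 ± 0.05) and BHLHE40 (-1.19 ± 0.04) had the smallest adjusted p among the lower ones. TGM2 overlaps RPRD1B on the other strand over 394 bases. HOXB4 lost its call without RARG-KO replicate 3 (edgeR adjusted p = 0.0531), WT replicate 1 (0.0727) or WT replicate 3 (0.0951), and turned to -0.06 with the median of its neighbours removed (0.376). The induced genes of the set thus went in both directions, DHRS3 and CRABP2 upward and CYP26B1 downward.

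Position on the chromosome was compared because many neighbours of RDH10 and CYP26A1 were lower in RARG-KO. For CRABP2, DHRS9, DHRS3, ALDH1A1 and CYP26B1 the median log2 of the nearest 40 tested genes lay between -0.06 and 0.02. That of ALDH1A3, with 27 neighbours up to the end of the chromosome, was 0.13, opposite to its own fall. RDH10 and CYP26A1 were the 2 genes of the set in regions with a median beyond 0.5 in size.

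**Figure D4:**
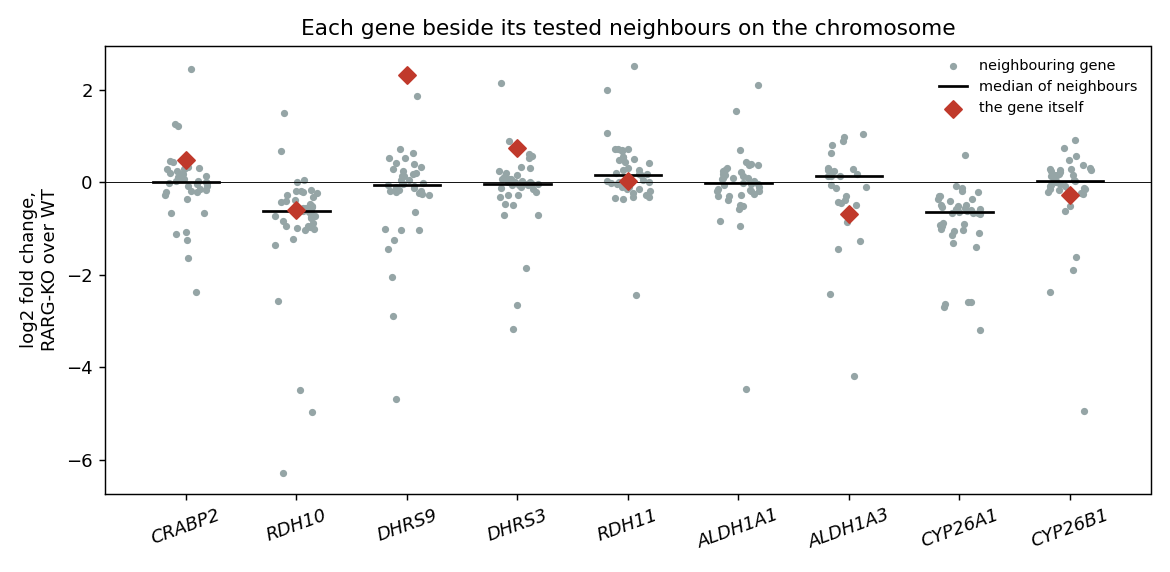
Log2 fold change, RARG-KO over WT, of the up to 40 nearest tested protein-coding genes of each gene (grey points, median as a black bar) and of the gene itself (red diamond, for the 7 tested genes). The neighbours of RDH10 and CYP26A1 have medians of -0.63 and -0.65, and RDH10 lies on its median.

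For each tested gene, the tested protein-coding genes with the most similar profile were found, as the smallest root mean square difference of centred log2 CPM over the 6 libraries. For DHRS9 these were GJA1 (0.06 log2 units) and C3 (0.08), with log2 fold changes of 2.44 and 2.21. For DHRS3 they were SMIM8 and TMEM25 (both 0.02 to 0.03), for CRABP2 PDHB and UBL7 (0.01 and 0.02), and for ALDH1A3 MPDZ and BRPF3 (0.01 and 0.02). RDH10 was most like UBE2V1 and INHBB (0.02 and 0.03), RDH11 like COPS7A and AGPAT2 (0.01 and 0.02), and CYP26B1 like EVPL (0.02). With 2 groups, such likeness is mostly a like difference between RARG-KO and WT.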

How the data were processed

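The authors deposited raw counts, whole numbers of reads for each gene. HISAT2 2.1.0, Bowtie2 2.2.3, featureCounts and DESeq2, with GRCh38 and hg38, are named per the submitters' processing notes; their roles, the annotation release and the strand setting are not stated there. The labels' protocols also hold a line on chromatin isolation, and the values were read as RNA because the labels give total RNA as the molecule. Columns were matched to libraries by name. All 60675 genes entered edgeR 4.0.16 in R 4.3.3 (TMM, filterByExpr, quasi-likelihood F test, group as the only term, Benjamini-Hochberg, threshold 0.05), which kept 16996 genes and 99.9% of the counts. The script was tested on simulated data. CPM are TMM-normalized, SE is the log2 fold change over the square root of F, and lengths and positions are from GENCODE release 29 on GRCh38. Neighbours were the 20 nearest tested protein-coding genes on each side. Replicates of a group differed by more than sampling noise (chi-square per degree of freedom 2.14 to 5.14). Nothing says that they were separate cultures, so p-values cover only the spread among these libraries, which may be technical. Genes were named by rule: the 9 genes, RARG, up to 2 higher and 2 lower genes with the smallest adjusted p in each list, and the 2 genes of most similar profile; others are named where few remained and after their values were seen, and some that the rules name are not reported here. The 9 genes and the lists were chosen with earlier results of these data known. Alternatives were other factors, DESeq2 1.42.0, no filter, a replicate block, each library left out and neighbour medians removed.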

Additional observations from a re-analysis of the deposited data

How the results depend on the processing

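The calls and directions of CRABP2, DHRS9, DHRS3, ALDH1A3 and CYP26B1 held in all 12 alternatives, with log2 values of 0.46 to 0.53, 2.28 to 2.38, 0.71 to 0.79, -0.82 to -0.65 and -0.30 to -0.22. With neighbour medians removed, RDH10 turned to 0.019 (edgeR adjusted p = 0.863), RDH11 to -0.13 (0.0256) and HOXB4 to -0.062 (0.376); these values moved by the medians that the setting takes off, and the count of 6 called genes of the set stayed because RDH11 replaced RDH10. RARG stayed lower in all 12, at -0.62 to -0.50. Without a filter 7 genes of the set were called, with CYP26A1 added. Calls over all genes ranged from 9081 to 10126. Whether replicate numbers pair the libraries is not stated. Same-numbered libraries deviated with correlations of 0.01, -0.34 and -0.14 over 10174 genes, and differently numbered ones with -0.26 to 0.36. Deviations were taken from the group mean, so these values depend on each other and cannot settle a pairing. With the replicate block 9258 genes, 6 genes of the set and 15 of the wider pathway were called. Depth limits ALDH1A1, CYP26A1 and the genes below the filter, where a few reads decide a value.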
